A study of Mus musculus with 27 samples.

Results

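The genes described here were the autosomal genes of the expression tables that spanned at least 200 kb from start to end. The rule found 817 of the 20156 genes in the tables, or 4.23% of the 19300 autosomal ones. They were chosen by length alone, and no measured value entered the choice. Their median length was 314 kb, the shortest was Plcxd3 at 200.089 kb and the longest Cntnap2 at 2241 kb. Just inside the limit lay Plcxd3 and Pcbp3 (200.094 kb), and just outside it Morc1 (199.669 kb) and Atp9b (199.918 kb). The body of a gene was taken as the stretch from 5 kb after its transcription start to its end. Counted once, the bodies of the 817 genes covered 322 Mb, which was 13.0% of the autosomal sequence.

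The cells were mouse embryonic fibroblasts (MEFs), pre-iPSCs and iPSCs. MEFs came from mid-gestation embryos hemizygous for an Oct4-GFP transgene and a Rosa26 allele. The labels give CBA/CaJ and C57BL/6J as the genetic background, and by the study's methods those were the strains of the sires, while the dams were 129Sv/Jae. Pre-iPSCs, partly reprogrammed cells held at an intermediate stage, and iPSCs (induced pluripotent stem cells) were made from such fibroblasts with retroviruses carrying the 4 Yamanaka factors. The study's methods describe 2 stable pre-iPSC clones with the iPSCs that correspond to them, and no source says which clone a library came from. Both were kept for 6 passages and expanded in medium with LIF on feeder layers of fibroblasts, whereas MEFs were used at early passage. Each cell type had 2 libraries of histone H3 (MNase-ChIP), of H3K4me3, of H3K27me3 and of RNA, and 1 library of H3K9me3. MEF chromatin was digested with another amount of MNase for another time than the chromatin of the other cells. This difference and the cell type cannot be told apart in any comparison of H3 or of a histone mark with MEFs. P-values measure the spread between these samples only.

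Mammalian genes of this length consist almost wholly of intron, and polymerase needs many hours to cross the longest of them. Many encode adhesion molecules, receptors and channels of neurons. H3K27me3, the mark of Polycomb repressive complex 2, can spread over whole silent genes, H3K4me3 sits mainly at active and CpG-rich promoters, and H3K9me3 is the mark of constitutive heterochromatin. Bulk expression values were used, so fewer cells of a type and less RNA per cell cannot be told apart.

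The sequences below are 300-bp stretches from introns of 4 of these genes, shown because the counts of H3K4me3 reads there differed between cell types. They are written on the plus strand of NCBIM37 (mm9), with each CG dinucleotide in capitals.
Filip1l, chr16:57550880-57551179: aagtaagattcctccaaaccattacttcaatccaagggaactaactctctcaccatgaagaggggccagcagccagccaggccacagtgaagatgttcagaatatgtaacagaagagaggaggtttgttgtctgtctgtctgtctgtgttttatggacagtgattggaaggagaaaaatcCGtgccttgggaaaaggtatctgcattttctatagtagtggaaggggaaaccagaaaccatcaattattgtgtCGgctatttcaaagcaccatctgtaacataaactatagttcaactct
Lpp, chr16:24448956-24449255: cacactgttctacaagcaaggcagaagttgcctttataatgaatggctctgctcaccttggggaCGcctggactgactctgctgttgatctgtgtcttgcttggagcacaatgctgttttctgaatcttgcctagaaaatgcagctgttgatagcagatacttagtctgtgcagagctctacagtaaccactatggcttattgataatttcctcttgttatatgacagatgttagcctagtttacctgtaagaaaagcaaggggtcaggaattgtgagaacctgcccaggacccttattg
Syne2, chr12:77107615-77107914: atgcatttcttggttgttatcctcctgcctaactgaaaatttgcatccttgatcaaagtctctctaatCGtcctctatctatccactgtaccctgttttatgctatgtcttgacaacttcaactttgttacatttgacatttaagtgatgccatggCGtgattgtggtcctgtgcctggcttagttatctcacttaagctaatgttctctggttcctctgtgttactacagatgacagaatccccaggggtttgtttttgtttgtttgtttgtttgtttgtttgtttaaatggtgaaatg
Zfp423, chr8:90439379-90439678: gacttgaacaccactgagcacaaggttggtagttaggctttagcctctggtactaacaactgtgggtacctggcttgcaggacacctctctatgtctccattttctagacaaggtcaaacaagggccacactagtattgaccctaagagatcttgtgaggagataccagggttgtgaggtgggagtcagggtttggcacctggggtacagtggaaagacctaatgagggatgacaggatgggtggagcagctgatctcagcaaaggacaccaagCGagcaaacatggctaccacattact

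The Filip1l stretch held 20 and 14 H3K4me3 reads in the MEF libraries, 1 and 6 in pre-iPSCs, then 0 and 3 in iPSCs. The Lpp stretch, 928 bp from an annotated Lpp transcript start, held 28 and 13, then 5 and 3, then 1 and 6. Both were higher in each MEF library than in any other. The Syne2 stretch was read 0 and 0 times in MEFs, 11 and 7 times in pre-iPSCs, then 1 and 6 times in iPSCs, where replicate 2 came within 1 read of a pre-iPSC library. The Zfp423 stretch went from 0 and 1 through 2 and 3 to 7 and 12 reads. The 4 sequences hold 1 or 2 CG and do not stand for all such stretches, since that of Msi2 held 8 and that of Dlc1 11. Counts this low carry a wide counting error, and the stretches were picked for their difference.

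The bodies were poor in G and C. Their median GC content was 41.4%, against 44.0% for the 6609 genes of 20 to 100 kb, and they had 7.81 CpG per kb against 10.1. Around the transcription start the order turned, with a median of 62 CpG in the surrounding kb against 60 in the shorter genes. The genes lay on every autosome, from 2.07% of the genes of chromosome 7 to 9.45% of those of chromosome 18. A total of 18 overlapped the body of another of the 817, and 31 had at least 5% of the body under another gene of the tables, so reads there cannot be given to a single gene. Of the 801 that GENCODE vM1 lists on the same chromosome, 14 had an annotated span under 50% of the span in the tables, among them Tnrc18, Rbfox1, Chrm3 and Gm4736.

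Before any comparison, 3 sets of libraries stood apart. The first was iPSC replicate 1 on chromosome 8. There the 37 members carried 1.43 times as much H3K4me3 per kb in iPSC replicate 1 as in replicate 2, relative to the other chromosomes, and 1.44 times as much H3K27me3. H3 gave 1.52 times. The RNA of all 589 chromosome 8 genes at 1 FPKM or more in both iPSC libraries gave 1.51 times, and the single H3K9me3 library of iPSCs stood 1.40 times above that of pre-iPSCs there. All 37 members lay above the median of the other 780 members in each of the 3 replicated marks. For H3K27me3 and H3K4me3 the other 18 autosomes lay between -0.05 and 0.05 on the same log2 scale in iPSCs, against 0.53 and 0.51 for chromosome 8, and in MEFs and pre-iPSCs chromosome 8 lay between -0.06 and 0.02. Chromosome copy number was not tested. The main counts of called genes and of marked windows that involve iPSCs are given below also without that chromosome. Counts that involve iPSCs under other scalings, by expression group and by list include it.

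**Figure D1:**
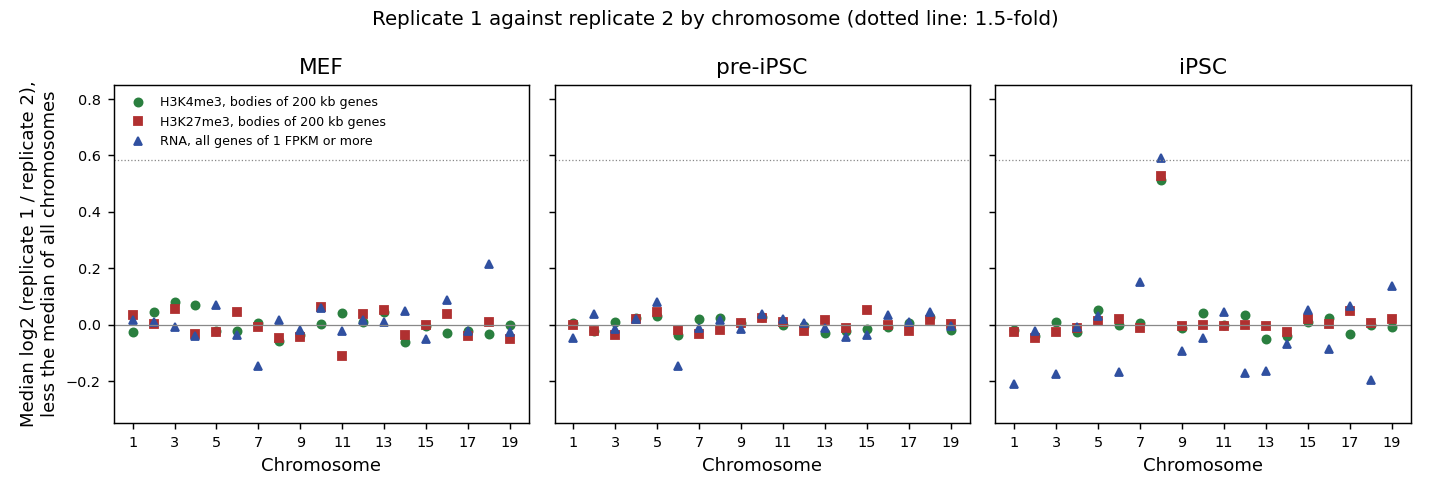
Median log2 ratio of replicate 1 over replicate 2 for each autosome, less the median over all chromosomes, in MEFs, pre-iPSCs and iPSCs. Circles and squares are H3K4me3 and H3K27me3 over the bodies of the genes of at least 200 kb, triangles are RNA of all autosomal genes at 1 FPKM or more, and the dotted line marks 1.5-fold. Chromosome 8 in iPSCs stands at 0.51, 0.53 and 0.59 in the 3 assays.

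The second was H3 in pre-iPSC replicate 1. Its median density over the long bodies (reads per kb, scaled to library size) was 0.300, against 0.395 to 0.459 in the other H3 libraries. Its reads fell on GC-rich bodies, with a Spearman's rank correlation between body GC and density of 0.943 over the 817 genes. This is a description across genes of 1 library. The iPSC libraries came close to it, at 0.935 and 0.904 in replicates 1 and 2, so the GC correlation alone did not set it apart. The correlation was 0.829 in pre-iPSC replicate 2 and 0.701 to 0.733 in MEFs. The third was RNA: the 10 fibroblast markers summed to 4768 and 4472 FPKM in MEFs, 407 and 228 in pre-iPSCs, then 252 and 325 in iPSCs, with no overlap between MEFs and the other cells. Col1a1 and Col1a2 made up most of the MEF sums. Both MEF libraries lay above all others for 8 of the 10 markers, and not for Dcn (36.6 FPKM in MEF replicate 2, 30.2 and 40.5 in iPSCs) or Lum (0.348 and 5.84, then 5.88 and 8.59). The part of such RNA in the results was not tested. Of 10 pluripotency markers all reached 1 FPKM in both iPSC libraries and 5 in each pre-iPSC library, where Pou5f1 stood at 378 and 3184 FPKM but Nanog, Zfp42, Esrrb and Dppa3 at under 1. Transcripts of the retroviral factors and of the cells' own genes cannot be told apart in these tables. H3 libraries held 67362868 to 108211816 reads in calls, and those of the other marks 12007350 to 15222040.

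A smaller share of these genes than of shorter ones was expressed in each of the 6 libraries, and the share was highest in MEFs and lowest in iPSCs. In MEFs 383 and 363 of the 817 genes reached 1 FPKM in replicates 1 and 2. The pre-iPSC libraries had 348 and 315 such genes and the iPSC libraries 284 and 313. Of the genes of 20 to 100 kb, 62.7 to 67.0% reached it in every library, against 34.8 to 46.9% of the long ones. At 10 FPKM the decline was steeper, from 127 and 100 long genes in MEFs through 94 and 83 to 53 and 49 in iPSCs, and the libraries of the 3 cell types did not overlap. These were 15.5 and 12.2%, 11.5 and 10.2%, and 6.49 and 6% of the long genes. Over all genes the shares at that level were 28.3 and 26.1%, 27.4 and 25.8%, and 24.2 and 24.1%, so iPSCs were lowest there too. Genes of 20 to 100 kb gave 35.2 and 28.1%, 32.9 and 29.5%, and 27.2 and 28.4%. The longest genes were the most silent: in MEF replicate 1, 57.9% of the 380 genes of 200 to 300 kb, 43.6% of the 275 genes of 300 to 500 kb and 26.5% of the 162 longer ones reached 1 FPKM. In iPSC replicate 1 the same classes gave 47.6%, 26.5% and 18.5%.

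Among the 5 longest genes, Lrp1b (a lipoprotein receptor relative, 2057 kb), Csmd1 (1643 kb) and Nrxn3 (neurexin 3, a presynaptic adhesion molecule, 1612 kb) stayed under 0.03 FPKM in all 6 libraries. Cntnap2, another neurexin relative, was at 0.0289 and 0 FPKM in MEFs, 0.0759 and 0.0676 in pre-iPSCs, then 3.18 and 1.86 in iPSCs. Its rise in iPSCs against MEFs was 1.77 ± 0.30 (SE) on the log2 scale, with an adjusted p of 0.006173 by limma over all genes tested. Fhit, a diadenosine triphosphate hydrolase at a common fragile site, was highest in pre-iPSCs, at 6.85 and 3.65 FPKM, against 0.708 and 1.99 in MEFs and 0.453 and 0.824 in iPSCs. At the other end stood App, the amyloid precursor protein, with 257 and 244 FPKM in MEFs, and Snd1, a nuclease of the silencing complex, with 54.3 to 78.3 FPKM in all 6 libraries. Snd1 and Chchd3, a protein of the mitochondrial inner membrane (48.4 to 80.7 FPKM), were near level across the cell types.

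The expression test asked which genes changed on the way from fibroblast to iPSC. A total of 444 of the 817 genes passed a filter of 0.5 mean FPKM and entered the limma fit of 12401 genes on log2(FPKM + 1), a scale that understates the change of low genes. Calls required an adjusted p under 0.05 with a difference of 2-fold or more. In pre-iPSCs against MEFs 39 long genes were higher and 98 lower, where 7.39% and 9% of all genes were called in those directions. In iPSCs against MEFs 29 were higher and 138 lower, where 10.3% and 15.5% of all genes, 25.9% together, were called. The median log2 change of the long genes tested was -0.23 and -0.56 in these comparisons, against -0.04 and -0.14 over all genes. In iPSCs against pre-iPSCs 12 were higher and 36 lower (3.91% and 4.71% of all genes). That last count rested on single libraries: it was 0 without iPSC replicate 2, 2 without iPSC replicate 1, 22 without pre-iPSC replicate 1, and 95 and 99 without MEF replicates 1 and 2. The count of 167 for iPSCs against MEFs was 49 without iPSC replicate 1 and 83 without iPSC replicate 2. With no filter on low values, when all genes were tested, limma called 0, 17 and 2 long genes in the 3 comparisons as ordered here. Without the chromosome 8 members the 3 counts were 38 and 91, 28 and 132, and 9 and 36.

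The genes with the largest called falls from MEFs were Filip1l, Galntl4, Wbscr17, Adam12 and Fbn2 in pre-iPSCs and Filip1l, Galntl4, Lhfp, Ltbp1 and Fbn1 in iPSCs. Fbn1, fibrillin 1 of the extracellular microfibrils, went from 131 and 46.5 FPKM in MEFs to 12.2 and 3.47 in pre-iPSCs, then 2.87 and 5.59 in iPSCs, so that no library of the reprogrammed cells came near a MEF library. Its log2 change in iPSCs against MEFs was -3.97 ± 0.59 (limma, adjusted p 0.004083). Ltbp1, which holds latent TGF-beta in the matrix, fell later: 114 and 57.1 FPKM in MEFs, 31.3 and 24.9 in pre-iPSCs, then 2.95 and 5.29 in iPSCs. Lhfp followed the same course, with 94.2 and 110, 28 and 20.4, and 3.47 and 6.02 FPKM. Galntl4 and Wbscr17, both of the family of enzymes that start O-linked glycans, were already down in pre-iPSCs, Galntl4 from 58.5 and 53.2 to 2.63 and 2.96 FPKM. The metalloprotease gene Adam12 went from 40.2 and 10.2 to 0.867 and 0.206 FPKM. Filip1l had the largest fall of all, -4.48 ± 0.47 in pre-iPSCs, from 133 and 62.8 to 4.81 and 1.98 FPKM, but its body lies wholly under another gene of the tables and its values are uncertain.

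Some genes were highest in pre-iPSCs among the 3 cell types. Markers of other cell types were read beside them. The 8 measured of 10 neural markers summed to 78.2 and 144 FPKM in MEFs. The pre-iPSC sums were 394 and 290 and the iPSC sums 134 and 96.9. Stmn2, with 14.05 and 91.2, then 301 and 263, then 76.8 and 59.5 FPKM, made up most of the pre-iPSC sums. Nes fell throughout, from 41.3 and 27.8 through 17.5 and 17.6 to 5.31 and 8.43 FPKM. Sox1 was highest in iPSCs, at 11 and 5.84 FPKM. Tubb3 had 67.8 and 1.23 FPKM in the pre-iPSC libraries. Pax6 had 4.42 and 7.1 FPKM in pre-iPSCs and 2.09 and 4.91 in iPSCs. Dcx reached at most 0.0106, Neurog1 at most 0.0557 and Snap25 at most 0.341 FPKM in any library. The 5 epithelial markers summed to 4.93 and 5.79, then 76.5 and 34.2, then 136 and 167 FPKM. Of these Krt8 was highest in pre-iPSCs, where both libraries lay above the 8.86 FPKM of the highest other library. Cdh1, Epcam and Cldn6 were highest in iPSCs. Krt18 was lowest in pre-iPSCs, with 4.42 and 5.08 FPKM in MEFs, 1.06 and 0.837 in pre-iPSCs, then 5.33 and 9.64 in iPSCs. The part of such cells in the pre-iPSC values was not tested. Zbtb7c, a zinc finger protein, had 0.299 and 0.595 FPKM in MEFs, 17.6 and 15.9 in pre-iPSCs, then 0.248 and 0.15 in iPSCs. Syne2, the nuclear envelope protein nesprin 2, had 1.52 and 0.135, then 17.4 and 13.4, then 0.671 and 0.631. Fry had 0.195 and 0.138, then 10.3 and 7, then 0.586 and 0.734. Each rose into pre-iPSCs and fell out of them past the threshold, with log2 changes of 3.62 and -3.89 for Zbtb7c, 3.27 and -3.30 for Syne2, and 3.03 and -2.52 for Fry, and all of these adjusted p-values by limma were at most 0.00625. Iqgap2 and Frmd4b also rose into pre-iPSCs, by 2.97 and 3.14. Ctnnd2 (delta-catenin), Efna5 (an ephrin ligand) and Limch1 (an actomyosin regulator) fell from pre-iPSCs to iPSCs by 3.17, 3.05 and 2.68 on the log2 scale. Efna5 had 7.6 and 14.3 FPKM in MEFs, 12.8 and 16.9 in pre-iPSCs, then 0.802 and 1.01 in iPSCs.

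Rises into iPSCs were fewer. Nr6a1, the orphan nuclear receptor GCNF, went from 0.742 and 0.484 FPKM in MEFs through 1.75 and 1.54 to 8.99 and 8.62, a change of 2.61 ± 0.34 against MEFs (limma, adjusted p 0.002713). Cadm1, an adhesion molecule of the immunoglobulin family, went from 0.539 and 0.609 through 6.49 and 1.45 to 8.57 and 9.92. Zfp423, a zinc finger transcription factor on chromosome 8, went from 0.297 and 0.599 through 11.2 and 3.63 to 9.93 and 6.63. Cobl, which nucleates actin filaments, had 1.79 and 1.47, then 9.47 and 15.4, then 18.6 and 11.3. On chromosome 8, Dlc1 and Arhgap10 (both GTPase-activating proteins) and Odz3 (teneurin 3) were lowest in both pre-iPSC libraries, and Dlc1 had 32.4 and 13.8, 3.14 and 2.79, and 24.3 and 17.4 FPKM. Without iPSC replicate 1 the log2 differences of these 3 genes between iPSCs and pre-iPSCs were 2.54, 2.23 and 2.12 rather than 2.44, 2.11 and 1.84, at adjusted p of 0.0965, 0.111 and 0.108 in the smaller limma fit. That of Zfp423 between iPSCs and MEFs was then 2.68 rather than 2.66, at an adjusted p of 0.0677.

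The gene lists, made by role, held 347 of the long genes, and many of their members were too low to test. Of the 42 neural adhesion genes 9 were tested, and in iPSCs against MEFs 2 rose (Cntnap2 and Cadm1) and 3 fell, among them Ncam1, from 67.5 and 81.8 FPKM to 4.94 and 8.13. Of 15 cadherins and catenins 8 were tested and 5 fell, among them Cdh2, N-cadherin, from 56.2 and 18.9 to 1.01 and 2.38. Of 54 ion channel and neurotransmitter receptor genes 9 were tested and 2 fell, Cacna2d1 and Gabrb1. Of 19 axon guidance genes 10 were tested and 6 fell, with a median log2 change of -2.14. They included the ligands Slit2 (21.3 and 13.3 to 0.391 and 0.833 FPKM) and Sema3a (25.1 and 11.3 to 0.408 and 0.871) and the receptors Epha3 and Unc5c. None of the tested guidance, cadherin or channel genes rose in iPSCs against MEFs.

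Of 34 genes of the extracellular matrix, integrins and their enzymes 13 were tested and 8 fell in iPSCs against MEFs, with a median of -2.02, and none rose. Of 46 genes of growth factor, kinase and cyclic nucleotide signalling 28 were tested and 15 fell, led by Ltbp1 and by Ghr, the growth hormone receptor, from 72.7 and 49 to 3.18 and 4.29 FPKM. Of 71 genes of the cytoskeleton, polarity and small GTPases 46 were tested, 4 rose and 15 fell, among them Tns1 (tensin 1), from 48.8 and 21.9 FPKM through 9.21 and 16.5 to 1.43 and 2.11. Of 52 transcription and chromatin regulators 38 were tested, 2 rose and 13 fell. The 2 were Zfp423 and the RNA-binding protein Msi2, at 2.58 and 2.37 FPKM in MEFs, 15.4 and 14.9 in pre-iPSCs, then 10.3 and 13 in iPSCs. Rbms3, also RNA-binding, fell from 13.4 and 24.7 to 0.982 and 1.52. Of 25 genes at common fragile sites 14 were tested, 1 rose (Dab1, an adaptor of reelin signalling, to 5.01 and 2.73 FPKM) and 3 fell (Lpp, Large and Ext1). The lists were described by these counts, beside the 10.3% of all genes tested that were called higher, the 15.5% called lower and the -0.14 median, and were not tested as sets.

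Body density is given as reads in calls per kb and per 1000000 reads in calls of the library. No input was subtracted, so it includes reads outside enriched chromatin. The long bodies held 11.5 to 14.2% of all reads in calls, a total not limited to the autosomes, and covered 13.0% of the autosomal sequence. These shares have unlike bases, since reads in overlapping bodies were counted for each gene and sequence once. Against the bodies of genes of 20 to 100 kb, the log2 ratio of pooled H3K4me3 density was -0.27 ± 0.13 (SD, n = 6), negative in all 6 libraries, and that of H3 was -0.32 ± 0.39 (SD, n = 6), also negative in all 6 (both p = 0.03125 by an exact two-sided sign-flip permutation test, adjusted 0.046875 over the 3 marks, and the smallest value 6 libraries can give). The H3 mean was drawn out by pre-iPSC replicate 1, at -1.02. For H3K27me3 the ratio was 0.04 ± 0.13 (SD, n = 6, exact permutation p = 0.5). MEF libraries gave 0.25 and 0.08, pre-iPSC libraries -0.09 and 0.07 and iPSC libraries -0.10 and 0.06. Both MEF libraries lay above the 4 others, by less than the MEF replicates differed from each other. H3K9me3, with 1 library per cell type, averaged -0.08. GC content, which differs between the classes, ran with density in every library, and its part in these ratios was not tested.

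**Figure D2:**
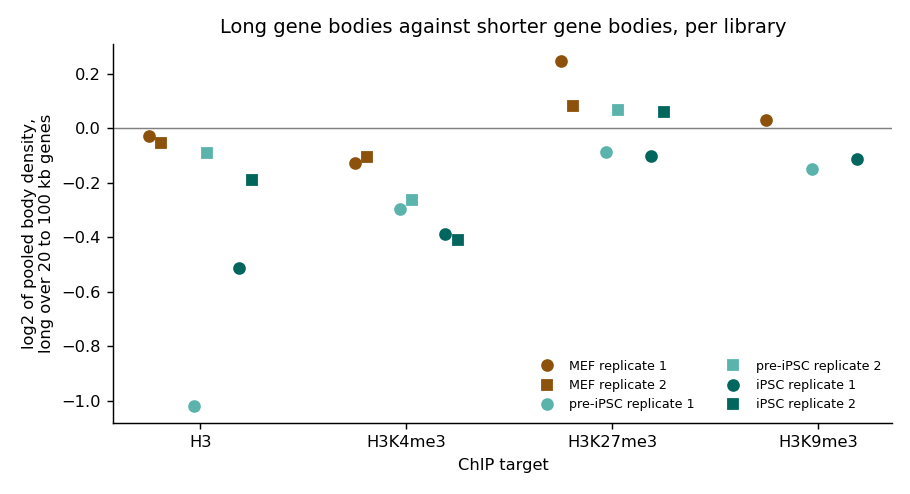
Log2 ratio of pooled read density in bodies of genes of at least 200 kb over that in bodies of genes of 20 to 100 kb, 1 point per library, for each mark and cell type. All 6 H3 and all 6 H3K4me3 points lie below 0, with H3 of pre-iPSC replicate 1 lowest at -1.02, and the H3K27me3 points lie between -0.10 and 0.25.

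H3K27me3 over the long bodies was lower in highly expressed genes than in those of low expression in every library. The gap, not divided by H3, was widest in MEFs. In MEFs the 118 genes at 10 FPKM or more on average had median densities of 0.235 and 0.274 reads per kb and 1000000 in replicates 1 and 2. The 108 genes listed at 0 in both RNA libraries had 0.429 and 0.374, and the 325 genes above 0 but under 1 FPKM had 0.467 and 0.450. In pre-iPSCs the 92 genes of at least 10 FPKM had 0.377 and 0.356, the 383 above 0 but under 1 FPKM had 0.459 and 0.479, and the 98 genes at 0 had 0.322 and 0.313. In iPSCs the 52 genes of at least 10 FPKM had 0.371 and 0.341, the 430 under 1 FPKM had 0.440 and 0.448, and the 90 at 0 had 0.366 and 0.380. The density of the genes under 1 FPKM was 1.99 and 1.64 times that of the highly expressed ones in MEFs, 1.22 and 1.35 times in pre-iPSCs and 1.19 and 1.31 times in iPSCs. The order differed for the genes listed at 0: the ratio of these silent bodies to highly expressed ones was 1.83 and 1.37 in MEFs, against 0.852 and 0.878 for pre-iPSCs and 0.987 and 1.11 for iPSCs, and in both ratios the MEF libraries did not overlap the others. With 2 libraries against 2 an exact two-sided permutation test cannot go below 0.333. The shorter genes listed at 0 also had the highest ratios in MEFs, with 3.06 and 2.55, 1.19 and 1.56, and 1.13 and 1.65. Highly expressed long genes were richer in GC (median 42.8% in MEFs against 39.8% for those at 0), and MEF H3 was level over the classes (ratios 0.990 and 1.03).

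**Figure D3:**
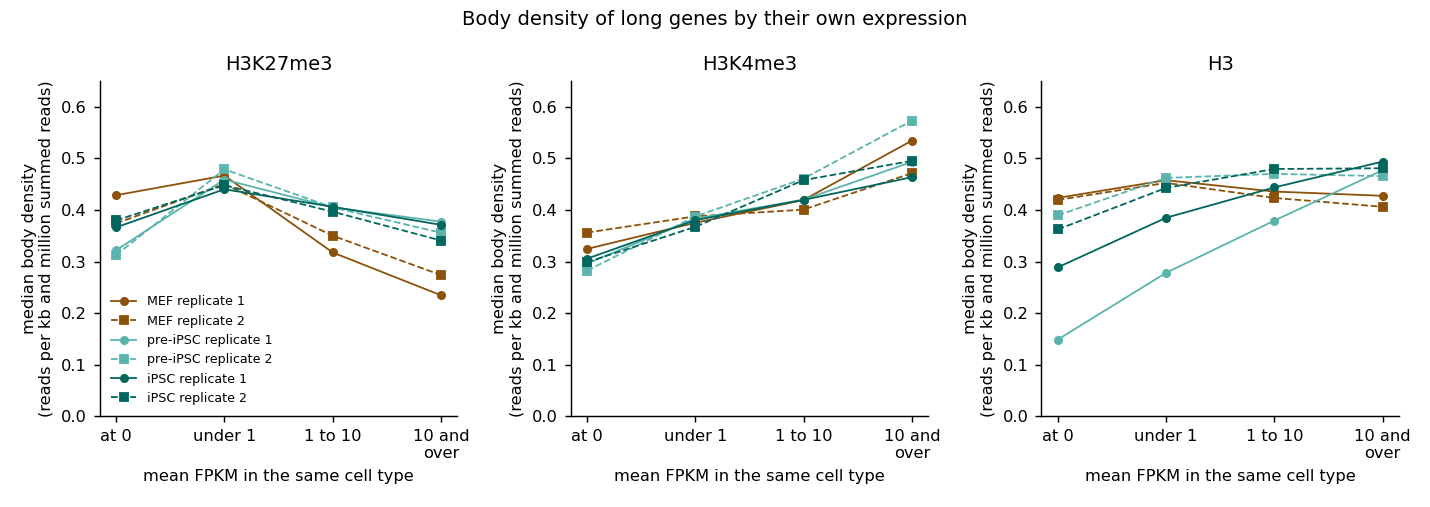
Median read density of H3K4me3, H3K27me3 and H3 over the bodies of the genes of at least 200 kb, by the mean FPKM of the gene in the same cell type, 1 line per library. In MEFs H3K27me3 falls from 0.467 and 0.450 in genes under 1 FPKM to 0.235 and 0.274 in genes of 10 FPKM or more, and in pre-iPSCs and iPSCs it falls less, from 0.440 to 0.479 in genes under 1 FPKM to 0.341 to 0.377 in the highest class.

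H3K4me3 was higher in highly expressed bodies than in silent ones in every cell type. Its ratio of silent to highly expressed bodies was 0.607 and 0.756 for MEFs, 0.600 and 0.493 for pre-iPSCs and 0.659 and 0.603 for iPSCs. Both pre-iPSC ratios lay below the 4 others, the higher of them by less than the replicates differed, and those of MEFs and iPSCs overlapped. For H3 the ratio was 0.312 in pre-iPSC replicate 1 against 0.837 in replicate 2, and 0.585 and 0.753 in iPSCs. Along the body, H3K27me3 of the highly expressed genes was nearly flat, with the part next to the start (the first 4 of 20 equal bins) at 1.08 and 1.01 times the part at the end in MEFs, against 0.93 and 1.01 for pre-iPSCs and 0.86 and 0.86 for iPSCs. H3K4me3 of the same class stood at 1.30 and 1.18 times in MEFs, 1.07 and 1.18 times in pre-iPSCs and 0.93 and 1.05 times in iPSCs.

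Body H3K27me3 was compared between cell types by edgeR's quasi-likelihood test over 11973 bodies, of which 816 were long genes. With libraries scaled to their summed reads, pre-iPSCs against MEFs gave 208 long bodies higher and 65 lower, where 16.8% and 2.22% of all bodies were called. The iPSC comparison with MEFs gave 188 higher and 30 lower (18.9% and 2.74% of all bodies). Long bodies hold more reads than shorter ones, so the same fold change is easier to call in them. The shares called over all bodies, here and for H3K4me3 and H3, are thus not a like-for-like base. Under this scaling the median of all bodies moved by 0.37 and 0.35 on the log2 scale, and that of the long bodies by 0.11 and 0.08. The direction therefore depended on the scaling: with TMM factors, which centre the bodies, the counts were 87 higher and 231 lower, and 76 and 173 (9.47% and 12.6%, and 13.6% and 12.6% of all bodies). After a correction for body GC they were 234 and 35 (21.5% and 2.64%), and 254 and 22 (24.4% and 3.68%). Bodies called in the same direction in all 3 settings numbered 86 higher and 32 lower in pre-iPSCs (9.02% and 1.71% of all bodies) and 75 and 17 in iPSCs (12.2% and 2.35%). The count of 273 was 120 without MEF replicate 1, 87 without pre-iPSC replicate 1 and 121 without pre-iPSC replicate 2, and the count of 218 was 100 without MEF replicate 1 and 101 without iPSC replicate 1. Without chromosome 8 they were 267 and 206. In iPSCs against pre-iPSCs edgeR called 0 long bodies, with 121 at an unadjusted p under 0.05, beside 884 of all 11973 bodies. TMM gave 5 and DESeq2 8 long bodies, or 0.613% and 0.980%, beside 0.785% and 0.91% of all bodies.

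These differences lined up with expression. In pre-iPSCs against MEFs, of the 98 long genes whose expression fell, 37 gained body H3K27me3 in all 3 settings and 0 lost it. Over all bodies 9.02% gained and 1.71% lost it in all 3 settings. Of the 39 whose expression rose, 0 gained it and 11 lost it. Of the 307 tested and not called, 45 gained and 3 lost it, and of the 373 with too little RNA to test, 4 gained and 18 lost it. In iPSCs against MEFs 51 of the 138 genes that fell gained it and 0 lost it, and of the 29 that rose 0 gained and 6 lost it. There 12.2% of all bodies gained and 2.35% lost it. With the summed-read scaling the median log2 change of body H3K27me3 was 0.55 over the 98 genes that fell and -0.21 over the 39 that rose in pre-iPSCs, and 0.50 and -0.23 over the 138 and 29 in iPSCs. With TMM these medians were 0.25 and -0.51, and 0.22 and -0.51, so the order of the groups was the same and the zero point moved. The counts of 0 hold for the 3 settings together. With TMM alone 7 of the 98 genes and 5 of the 138 were called lower in body H3K27me3, beside 37 and 51 called higher. With the summed-read scaling alone 2 of the 39 and 1 of the 29 were called higher, beside 12 and 6 called lower. Both comparisons use the same MEF libraries. The same crossing was not made for shorter genes, so nothing here marks it as particular to the long ones.

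**Figure D4:**
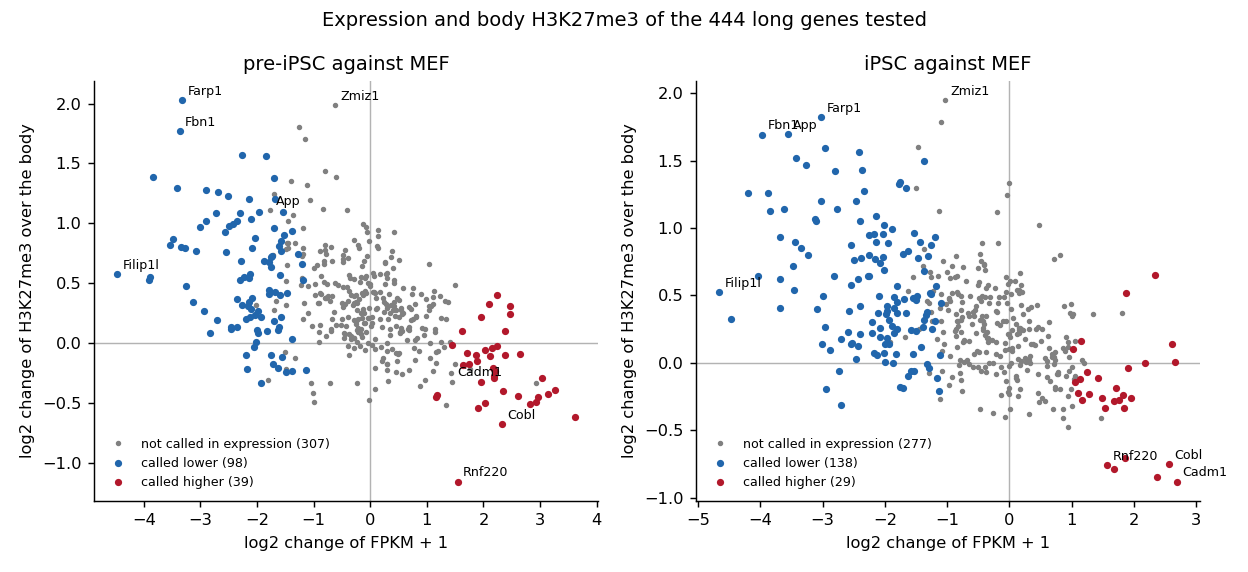
Log2 change in expression (horizontal axis) against log2 change in body H3K27me3 (vertical axis, libraries scaled to their summed reads) for the long genes tested in both, in pre-iPSCs and in iPSCs against MEFs. Genes called lower in expression lie mostly above 0, with medians of 0.55 and 0.50, and genes called higher lie mostly below, with medians of -0.21 and -0.23.

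Among the bodies that gained most H3K27me3 were those of genes highly expressed in MEFs. Farp1, a guanine nucleotide exchange factor with a FERM domain (chr14:121434796-121682948, NM_134082), had 0.149 and 0.174 reads per kb and 1000000 in MEFs, rising to 0.594 and 0.726 in pre-iPSCs and to 0.577 and 0.568 in iPSCs. The gain reached 2.03 ± 0.13 (SE) for pre-iPSCs and 1.82 ± 0.13 for iPSCs on the log2 scale (edgeR, adjusted p 0.0003154 and 0.0004754). Its RNA went from 72.5 and 35.9 FPKM to 5.51 and 3.14 and then 6.24 and 4.65. Fbn1 (chr2:125126330-125332174, NM_007993) had 0.156 and 0.180, then 0.564 and 0.580, then 0.558 and 0.528. App (chr16:84954681-85173952) gained in steps, with 0.168 and 0.143, then 0.334 and 0.336, then 0.536 and 0.470, while its RNA went from 257 and 244 through 130 and 40.5 to 13.49 and 30.1 FPKM. In each of these genes the cell types with more H3K27me3 had no library within the MEF range. In 10-kb tiles the mean was higher than in MEFs over the whole length: 24 of 24 tiles of Farp1, 20 of 20 of Fbn1 and 21 of 21 of App, in pre-iPSCs and in iPSCs alike.

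Gains were also seen where RNA did not pass the test. Zmiz1, a coregulator of transcription (chr14:26278671-26486233), had 0.158 and 0.181 in MEFs, against 0.713 and 0.630 for pre-iPSCs and 0.649 and 0.659 for iPSCs, a gain of 1.99 ± 0.11 and 1.95 ± 0.11. Its RNA was 29.9 and 11.1 FPKM, 13.6 and 9.72, and 8.54 and 8.3 (limma, adjusted p 0.362 and 0.1102). Trio, a guanine nucleotide exchange factor, gained 1.71 and 1.60 with 12.5 and 2.89, 3.68 and 1.26, and 0.931 and 2.54 FPKM. Snd1, steady in RNA, went from 0.183 and 0.233 to 0.401 and 0.348 and to 0.401 and 0.371, a gain of 0.85 and 0.89 (adjusted p 0.006001 and 0.00443, edgeR) that spread over 40 of 40 tiles. Under the same scaling the median of all bodies rose by 0.37 and 0.35. Trio and Zmiz1 bodies also carried more H3 in pre-iPSC replicate 1 than in replicate 2, 1.11 against 0.506 and 1.75 against 0.492. Tnrc18 passed as well, with 0.0212 and 0.0308 in MEFs and 0.0833 to 0.0971 in the other cells, but most of its span is not annotated to it in GENCODE vM1 and held no reads.

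Losses in the named genes were smaller, and several sat in genes that gained RNA. Rnf220, a ubiquitin ligase (chr4:116944069-117169520), had the highest MEF density of the genes named here, 1.00 and 0.937, against 0.423 and 0.443 for pre-iPSCs and 0.574 and 0.571 for iPSCs. The change was -1.16 ± 0.09 and -0.76 ± 0.09 (edgeR, adjusted p 0.0004313 and 0.001651), and 1 of its 22 tiles was above MEFs in pre-iPSCs and 0 in iPSCs. Its RNA rose from 13.6 and 8.79 FPKM to 40.7 and 28.2 and to 42 and 28.3. Cadm1 lost H3K27me3 late, with 0.886 and 0.726, 0.595 and 0.694, and 0.400 and 0.474, as its RNA rose. Ppp1r9a, neurabin 1, went from 0.546 and 0.551 through 0.369 and 0.435 to 0.323 and 0.313 while its RNA went from 0.14 and 0.108 FPKM to 2.1 and 3.18. Cobl and Epb4.1l4a, a FERM protein, behaved alike, with losses of 0.75 and 0.85 in iPSCs. Fam135b and Stxbp5l lost H3K27me3 in pre-iPSCs too, by 0.63 each, though both were listed at 0 FPKM in all or all but 1 of the 6 RNA libraries.

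**Figure D5:**
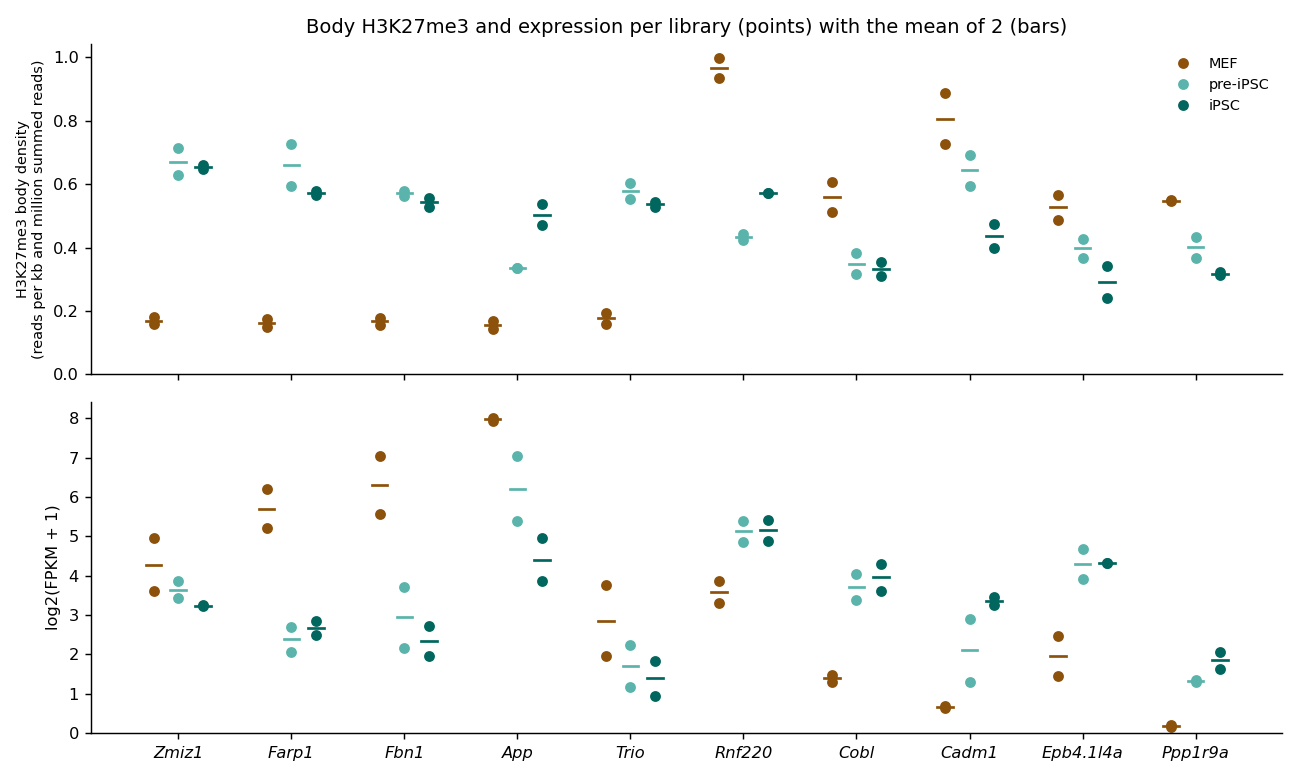
Body H3K27me3 (upper panel, reads per kb and 1000000 summed reads) and log2(FPKM + 1) (lower panel) of 10 long genes named in the text, with 1 point per library and a short bar at the mean of 2 for each cell type. Farp1, Fbn1, App and Zmiz1 lie under 0.2 in both MEF libraries and above 0.3 in all 4 others, and Rnf220 and Cadm1 lie highest in MEFs.

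By list, body H3K27me3 rose in pre-iPSCs against MEFs in 22 of 52 transcription and chromatin regulators and fell in 0 (11 and 0 in all 3 settings), beside 16.8% of all bodies. It rose in 27 and fell in 7 of 71 cytoskeletal genes (13 and 4 in all 3 settings) and rose in 10 and fell in 2 of 34 matrix genes (7 and 0) and rose in 13 and fell in 2 of 46 signalling genes (5 and 1). Of 42 neural adhesion genes 5 rose and 6 fell (1 and 2 in all 3 settings), of 54 channel and receptor genes 5 rose and 9 fell (1 and 3), and of 19 axon guidance genes 5 rose and 4 fell (2 and 0), beside 2.22% of all bodies that fell. Of 15 cadherins and catenins 2 rose and 2 fell (0 and 0), and of 25 fragile-site genes 4 rose and 4 fell (3 and 2). With the summed-read scaling the median log2 changes were 0.33 for the transcription regulators, 0.19 for cytoskeletal, 0.06 for signalling and 0.05 for matrix genes. Then came -0.02 for fragile-site, -0.10 for axon guidance, -0.10 for channel and receptor and -0.15 for neural adhesion genes and -0.19 for the cadherins. The median was 0.37 over all bodies and 0.11 over the long ones. In the same order the median body GC of the lists was 42.5, 42.2, 41.3, 41.0, 40.0, 38.0, 40.1, 39.5 and 39.3%. The part of GC in the order of the lists was not tested.

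H3K4me3 over the bodies was called in 112 long genes higher and 82 lower in pre-iPSCs against MEFs, out of 816, where 16.1% and 2.94% of the 11981 bodies were called, and in 112 and 180 in iPSCs against MEFs (31.9% and 5.91%). After the GC correction 110 were higher and 7 lower (11.7% and 1.25% of all bodies), and 138 and 8 (20.4% and 1.42%), so that most of the falls were lost. With TMM the counts were 33 and 207 (4.76% and 6.83%), and 35 and 385 (15.3% and 15%). In all 3 settings 32 rose and 7 fell in pre-iPSCs (4.39% and 0.91% of all bodies), and 28 and 7 in iPSCs (8.46% and 0.751%). The count of 194 was 28 and 111 without MEF replicates 1 and 2 and 77 and 66 without pre-iPSC replicates 1 and 2, and the count of 292 was 186 without MEF replicate 1 and 185 without iPSC replicate 1. Without chromosome 8 the iPSC counts were 99 and 180. Of the 39 genes whose expression rose in pre-iPSCs, 8 gained H3K4me3 in all 3 settings and 0 lost it, and of the 98 that fell, 0 gained and 4 lost it. Of the 307 tested and not called, 10 gained and 2 lost it, and of the 373 not tested, 14 gained and 1 lost it. In iPSCs against MEFs 7 of the 29 that rose gained it and 0 lost it. Of the 138 that fell there, 1 gained and 5 lost it. In iPSCs against pre-iPSCs edgeR called 0, with 87 at an unadjusted p under 0.05, beside 1760 of all 11981 bodies. DESeq2 called 1, beside 7 of all bodies (0.0584%).

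The largest gain among called bodies in iPSCs against MEFs was in Zfp423, from 0.385 and 0.414 in MEFs through 0.688 and 0.710 to 1.01 and 0.822 in iPSCs (1.20 ± 0.11, edgeR adjusted p 0.0002651), and it was 1.04 without iPSC replicate 1. Grik3, a kainate receptor subunit, Rbfox3, a neuronal splicing factor, and Igsf21, a synaptic adhesion molecule, gained H3K4me3 and H3K27me3 together in pre-iPSCs. Rbfox3 had 0.335 and 0.409 of H3K4me3 in MEFs, 0.755 and 0.640 in pre-iPSCs, then 0.760 and 0.725 in iPSCs, and 0.746 and 0.784, 1.18 and 1.07, and 0.945 and 0.934 of H3K27me3. Its RNA stayed at or under 0.321 FPKM. Lpp, a focal adhesion protein, lost body H3K4me3, from 0.798 and 0.571 through 0.419 and 0.463 to 0.366 and 0.406 (-0.82 ± 0.14, and -0.61 after the GC correction), with RNA from 57.1 and 32.5 through 5.5 and 4.36 to 1.66 and 2.56 FPKM. Sema3a lost 0.87, but only 0.20 after the GC correction, where the call was lost. Klra12, Klra22 and Gm4736, of multi-copy families, also passed at densities of 0.0763 to 0.177, where unique reads are few, and Klra22 and Gm4736 lost the call after the GC correction.

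Few places within the bodies reached a high H3K4me3 density, and the share of the body reads that they held was not computed. With each place counted once, under the longest gene that holds it, 322075 windows of 1 kb were read. Of these, 215 in 102 genes reached 1.5 reads per kb and 1000000 in both MEF libraries, 121 in 76 genes in both pre-iPSC libraries and 85 in 65 genes in both iPSC libraries. The 1 kb around the transcription start reached the same level in 58.4 and 39.9% of the 817 genes in MEFs, in 29.9 and 19.6% in pre-iPSCs and in 35.3 and 21.5% in iPSCs, so more promoters than in the other cells also passed it in MEFs, and the part of such enrichment in the window counts was not tested. Of the 350 windows that reached the level anywhere, 15 reached it in all 3 cell types, 162 in MEFs alone, 77 in pre-iPSCs alone and 55 in iPSCs alone. Chromosome 8, where iPSC replicate 1 stands high, held 18 of the 85 and 16 of the 55, those of Zfp423 among them. Without it 67 windows in 56 genes were left in iPSCs, 39 of them in iPSCs alone, beside 198 in MEFs and 111 in pre-iPSCs. An annotated transcript start lay within 1 kb of the centre of 33.1% of the 350 windows, against 1.62% of all windows. The window of Filip1l that holds the sequence above had 3.83 and 2.29 in MEFs and 0.231 to 0.643 in the other cells, and that of Lpp 4.08 and 2.36 against 0.615 to 1.22.

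H3 over the bodies gave 0 calls in each of the 3 comparisons by edgeR, with 2, 0 and 0 long bodies at an unadjusted p under 0.05, and 0 by DESeq2. After the GC correction edgeR still called 0. In pre-iPSCs against MEFs 107 long bodies then had an unadjusted p under 0.05 (103 of them higher), beside 1775 of all 12061 bodies. There were 82 for iPSCs against MEFs (82 higher), beside 872, and 7 between iPSCs and pre-iPSCs, beside 102. The median of the long bodies in pre-iPSCs against MEFs turned from -0.19 to 0.10. Without pre-iPSC replicate 2 the test of pre-iPSCs against MEFs called 583 long bodies, 157 higher and 426 lower (46.5% and 22.1% of all bodies, 68.6% together), on the library with the GC correlation of 0.943. A difference in body H3 between cell types was not detectable with these libraries.

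H3K9me3 had 1 library per cell type, so its ratios have no replicate check. Among the 816 long bodies with at least 100 reads in both libraries, 16 were past 1.5-fold higher and 4 lower in pre-iPSCs over MEFs (9.46% and 0.504% of all bodies), and 32 and 2 in iPSCs over MEFs (8.67% and 0.7%). In iPSCs over pre-iPSCs 3 were higher and 0 lower (1.48% and 0.772%). Shorter bodies hold fewer reads, so counting error alone takes more of them past a fold limit, and these shares are not a like-for-like base. These counts depended on how reads were taken: with calls of at least 2 reads only, 100, 104 and 26 long bodies were past 1.5-fold in these comparisons in place of 20, 34 and 3. The share of all bodies is not given for that setting, so those counts cannot be set against the other genes. Chromosome 8 held 17 of the 32 and all 3 of the last, Cdh13, Nr3c2 and Sorbs2, so without it the counts were 15 and 2, and 0. Cdh13, an adhesion molecule of the cadherin family, had 0.558 in MEFs, 0.623 in pre-iPSCs, then 0.992 in iPSCs. Away from chromosome 8, Tns1 went from 0.297 (95% exact Poisson interval 0.276 to 0.318, counting error only) to 0.545 (0.518 to 0.574) and 0.557 (0.528 to 0.587), and Trio from 0.302 to 0.547 and 0.483. Both are among the genes whose body H3K27me3 rose. Cadm1 went the other way, from 0.622 through 0.497 to 0.416. Skint6 had the largest ratio, with 0.0312, 0.135 and 0.122, but the MEF replicates themselves differed there, at 0.102 and 0.0171 for H3K27me3.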

How the data were processed

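Chromatin and RNA of MEFs, pre-iPSCs and iPSCs were measured in 21 ChIP and 6 RNA-seq libraries. According to the submitters' processing notes and the study's methods, ChIP reads were aligned to mm9 with Bowtie 1.0.1 with unique reads kept, and nucleosome-sized calls of 147 bp were made library by library with GeneTrack. Each deposited call carries a read count and a fuzziness score from the authors, and the score was not used. RNA-seq reads were aligned with TopHat2 2.0.4, and the authors deposited FPKM values from Cufflinks 2.0.2 in 2 tables, 1 per replicate, that were normalized separately. Groups and replicates were taken from the sample titles, in which a suffix marks the second library.

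The read counts of calls were summed over each body by the call's centre, 73 bp from its start, and divided by body length and by the library's summed counts. Bodies of autosomal genes of at least 10 kb were compared between cell types with edgeR 4.0.16 (quasi-likelihood test, low counts removed by filterByExpr, library size equal to the summed counts). Log2(FPKM + 1) was compared for genes averaging 0.5 FPKM or more with limma 3.58.1, with the table, and so the replicate number, as a term. Calls needed a Benjamini-Hochberg adjusted p below 0.05, and in expression also a 2-fold change. Long bodies were set against those of 20 to 100 kb by an exact sign-flip permutation test over libraries. H3K9me3 ratios needed 100 reads in both libraries, and their exact Poisson intervals (95%) cover counting error only, as does all depth given here. For the GC correction, bodies were divided into 20 classes of GC content in each library. Windows of 1 kb with a MEF H3 density of 1 or more, of which 201 reached the H3K4me3 level in a library, were left out of the H3K4me3 window counts. Transcript starts, spans and sequences came from GENCODE vM1 and NCBIM37 (mm9), and start positions in the tables count from 0. Python 3.11.15 and R 4.3.3 were used.

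The named genes were the 5 largest rises and the 5 largest falls called in each expression comparison and going the same way in both replicates, the 4 largest for body H3K27me3 and the 3 largest for H3K4me3 and H3, the 5 longest genes, the 3 of highest FPKM per cell type, the 3 largest H3K9me3 ratios in each direction, and in each list the 2 largest and 2 smallest changes called in iPSCs against MEFs. Members, lists and this rule were chosen with earlier results of these data known. The window threshold of 1.5 reads per kb and 1000000, the counts without chromosome 8, the counting of each window once and the counts over 3 scalings were chosen after seeing these values. The tests were tried on simulated data for pre-iPSCs against MEFs with 100 bodies changed per fold size. The edgeR test found 87 of the 2-fold and 38 of the 1.5-fold changes in H3K4me3 over 11981 bodies, 56 and 15 in H3K27me3 over 11973 bodies, and 0 and 0 in H3 over 12061 bodies. Over 12401 genes limma found 86 of 100 planted log2 changes of 2.5 and 31 of 100 of 1.5.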

Additional observations from a re-analysis of the deposited data

How the results depend on the processing

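Counts of called long genes moved with single libraries, with the filter on low FPKM and with the reads taken as calls. Leaving out 1 library at a time gave 95 to 173 calls in expression for pre-iPSCs against MEFs, 0 to 99 for iPSCs against pre-iPSCs and 49 to 185 for iPSCs against MEFs. The same gave 28 to 199, 0 to 16 and 185 to 278 for body H3K4me3, and 87 to 344, 0 to 0 and 100 to 283 for body H3K27me3. For H3 in pre-iPSCs against MEFs it gave 0 to 583. With no filter on low FPKM limma called 0, 2 and 17 genes in place of 137, 48 and 167, and the cause was not tested. The GC correction gave 117 and 146 calls of H3K4me3 against MEFs in pre-iPSCs and iPSCs in place of 194 and 292, and 8 bodies past 1.5-fold in H3K9me3 in iPSCs over pre-iPSCs in place of 3. In iPSCs against pre-iPSCs, where edgeR called 0, DESeq2 called 1 long body in H3K4me3 and 8 in H3K27me3, beside 0.0584% and 0.91% of all bodies. TMM factors gave 5 in H3K27me3, beside 0.785% of all bodies. With calls of at least 2 reads, the H3K9me3 counts were 100, 26 and 104 in place of 20, 3 and 34. Without the members of chromosome 8, H3K9me3 gave 0 in iPSCs over pre-iPSCs and 17 in iPSCs over MEFs. Bodies called under all 3 scalings numbered 39 and 35 for H3K4me3 and 118 and 92 for H3K27me3 in pre-iPSCs and iPSCs against MEFs. The balance of rises and falls over the long bodies turned with the scaling. For H3K27me3 the median log2 change was 0.11 and 0.08 in pre-iPSCs and iPSCs against MEFs, and -0.19 and -0.20 with TMM. For H3K4me3 in iPSCs against MEFs it was -0.06, and 0.18 after the GC correction. The expression, H3K4me3 and H3K27me3 values of the genes named for those assays did not change sign under the alternatives run. These genes were picked as large called changes that went the same way in the replicates. The choice favours that outcome, which therefore carries little weight. With no filter on low FPKM, however, 28 of the named expression results were weaker and 2 were the same. H3K9me3 ratios of single genes and the genes named from the lists were not recomputed.

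The replicate numbers were not taken as a pairing of cells. The expression fit had the table as a term, and since each table holds 1 replicate number this is a replicate block, while the fits of the marks had none. The labels give only a suffix, and deviations of same-numbered libraries correlated between -0.31 and 0.90. For pre-iPSCs and iPSCs, which the study's methods describe as corresponding clones, they were 0.11 in RNA, 0.90 in H3, 0.31 in H3K4me3 and 0.48 in H3K27me3, while for MEFs and iPSCs they were negative in each assay. With a replicate block the counts against MEFs in pre-iPSCs and iPSCs were 159 and 273 for H3K4me3, 188 and 160 for H3K27me3 and 0 for H3, and in iPSCs against pre-iPSCs 0 for each of these marks. Without the block in expression they were 141 and 166, and 49 in iPSCs against pre-iPSCs. Of the named genes, Arhgap10 alone lost its call there, at an adjusted p of 0.074 by limma.

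Each group held 2 libraries. H3 libraries held at least 67362868 reads and gave 0 calls. The other marks, at 12007350 to 15222040 reads, leave few reads in a single 1-kb window.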
